A study of Rattus norvegicus with 15 samples.

Results

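The genes described here make nitric oxide in the artery wall or receive it. There are 8 of them among the 4736 genes that the array's probe sets name singly: Slc7a1, Gch1, Ddah1, Nos1, Nos2, Nos3, Gucy1a1 and Gucy1b1. They were found by the gene symbol that the array platform's annotation gives each probe set, and 24 of the 8740 probe sets that are not array controls carried one of these symbols alone. Of these 24 probe sets, 18 passed a filter on low signal and were tested, and each of the 8 genes had at least 1 of them. RNA from rat mesenteric arteries, the small arteries that feed the gut, was hybridised to 15 arrays in 4 groups defined by strain and vessel type. SHR, the spontaneously hypertensive rat, gave 4 control arteries and 4 collateral arteries. WKY, the Wistar-Kyoto rat commonly used as its normotensive comparison, gave 3 control and 4 collateral arteries. A collateral here is an artery that took on flow after neighbouring arteries were occluded. The question behind the design is how the 2 strains differ in the growth of such vessels. The labels give no age, sex or time after occlusion, and do not say whether each array came from its own animal, so the p-values measure the spread between these arrays, which may be partly technical.

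Nitric oxide synthases split arginine, and the gas they release relaxes smooth muscle. Nos3 is the endothelial synthase, Nos1 the neuronal one and Nos2 the inducible one. Slc7a1 encodes the cationic amino acid transporter CAT-1 that brings arginine into the cell, Gch1 the first enzyme in the synthesis of the cofactor tetrahydrobiopterin, and Ddah1 an enzyme that breaks down methylated arginines, which inhibit the synthases. In smooth muscle nitric oxide binds soluble guanylyl cyclase, a pair of subunits of which Gucy1a1 encodes alpha 1 and Gucy1b1 beta 1, and the cGMP it makes lowers calcium and tension. In arteries this pathway is known for its response to flow.

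Promoter sequence is shown for the transporter and both cyclase subunits, which are among the genes with differences below. The windows run from 250 bases before to 50 bases after each annotated start, 5′ to 3′ on the gene's strand, from RefSeq for build GRCr8; an entry was matched for 7 of the 8 genes. Capitals mark every match, on either strand, to 6 motifs: the GC box GGGCGG, the CCAAT box CCAAT, the TATA box TATAAA, the cAMP response element TGACGTCA, the amino acid response core TGATGNAA and the shear stress element GAGACC. The Slc7a1 window is chr12:11664238-11664537 on the plus strand, the Gucy1a1 window chr2:169779574-169779873 on the minus strand and the Gucy1b1 window chr2:169696938-169697237 on the minus strand.
Slc7a1: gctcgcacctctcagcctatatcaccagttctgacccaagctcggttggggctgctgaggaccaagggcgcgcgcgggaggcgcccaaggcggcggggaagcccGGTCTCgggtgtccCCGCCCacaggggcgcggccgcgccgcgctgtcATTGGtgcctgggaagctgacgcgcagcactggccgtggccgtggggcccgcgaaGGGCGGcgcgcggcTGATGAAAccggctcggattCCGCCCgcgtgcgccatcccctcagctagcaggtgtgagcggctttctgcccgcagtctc
Gucy1a1: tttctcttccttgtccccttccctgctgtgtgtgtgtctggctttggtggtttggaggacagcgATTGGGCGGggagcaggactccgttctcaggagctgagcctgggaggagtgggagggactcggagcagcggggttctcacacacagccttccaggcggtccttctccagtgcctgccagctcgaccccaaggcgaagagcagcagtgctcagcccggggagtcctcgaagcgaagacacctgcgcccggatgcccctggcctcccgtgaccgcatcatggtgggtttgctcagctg
Gucy1b1: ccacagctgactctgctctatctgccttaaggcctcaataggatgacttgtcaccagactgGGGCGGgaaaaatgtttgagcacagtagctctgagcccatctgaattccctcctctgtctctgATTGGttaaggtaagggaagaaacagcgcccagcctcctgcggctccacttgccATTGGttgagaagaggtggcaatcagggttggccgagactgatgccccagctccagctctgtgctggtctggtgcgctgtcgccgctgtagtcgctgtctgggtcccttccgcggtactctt
The Slc7a1 window was 72.0% G and C, against a median of 51.7% over 33469 promoter windows of this length. It held 6 matches, of which 3 were GC boxes and 1 a CCAAT box on the minus strand. TGATGAAA, a match to the amino acid response core, had its first base at position -30 from the start, and 3.98% of all windows hold this motif. The shear stress element matched on the minus strand, with its first base at position -146, and 16.5% of all windows hold it. In Gucy1a1 (63.7% G and C) a GC box and a CCAAT box on the minus strand overlapped each other, so these are not separate stretches. Gucy1b1 (56.3% G and C) held 1 GC box and 2 CCAAT boxes on the minus strand. GC boxes stand in 33.1% and CCAAT boxes in 37.5% of all windows. TATAAA, in 14.2% of all windows, and TGACGTCA, in 1.83%, had no match in these 3 windows. The window of Ddah1, which also differs below, is not shown. It was 71.0% G and C and held 0 matches to the 6 motifs. Gucy1a1 and Gucy1b1 lie on chromosome 2 on the same strand, with 1 annotated gene between them. These matches describe letters in the windows and no binding was measured.

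Values below are log2 of the deposited MAS5 signal, the summary that Affymetrix software makes of a probe set's probes, and a difference of 1 is a doubling. MAS5 signals of different probe sets are not on a common scale per molecule, so levels are compared between arrays and not between genes. An array's dim level was taken as its own 20th percentile of signal. One array, SHR collateral 3, stood apart. Over the probe sets that passed the filter, its rank correlation with the other arrays was 0.496 to 0.657. The other 14 arrays reached 0.805 to 0.931 among themselves. Its 18 spike-in control probe sets averaged a signal of 180143, against 13556 to 66441 on the others, and its 20th percentile was 171.2 against 43.4 to 83.3. The values it moves most are also given without it where they are described. The 3′ to 5′ signal ratio of 2 control genes, a measure of RNA quality, also moved with strain. The mean log2 ratio was 2.07 to 2.38 in WKY control, 2.10 to 2.62 in WKY collateral, 1.71 to 2.31 in SHR control and 1.64 to 2.06 in SHR collateral arteries. The part of this ratio in the strain differences below was not tested.

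Most members stood well above the dim level. Ddah1 on D86041_at, Nos3 on AJ011115_g_at, Gucy1a1 and Gucy1b1 were at or above the 40th percentile on all 15 arrays. The weakest entries were 6 untested probe sets, among them Gch1 on E03424cds_s_at and Nos3 on AF085195_at, each below the dim level on 10 of the 15 arrays.

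**Figure D1:**
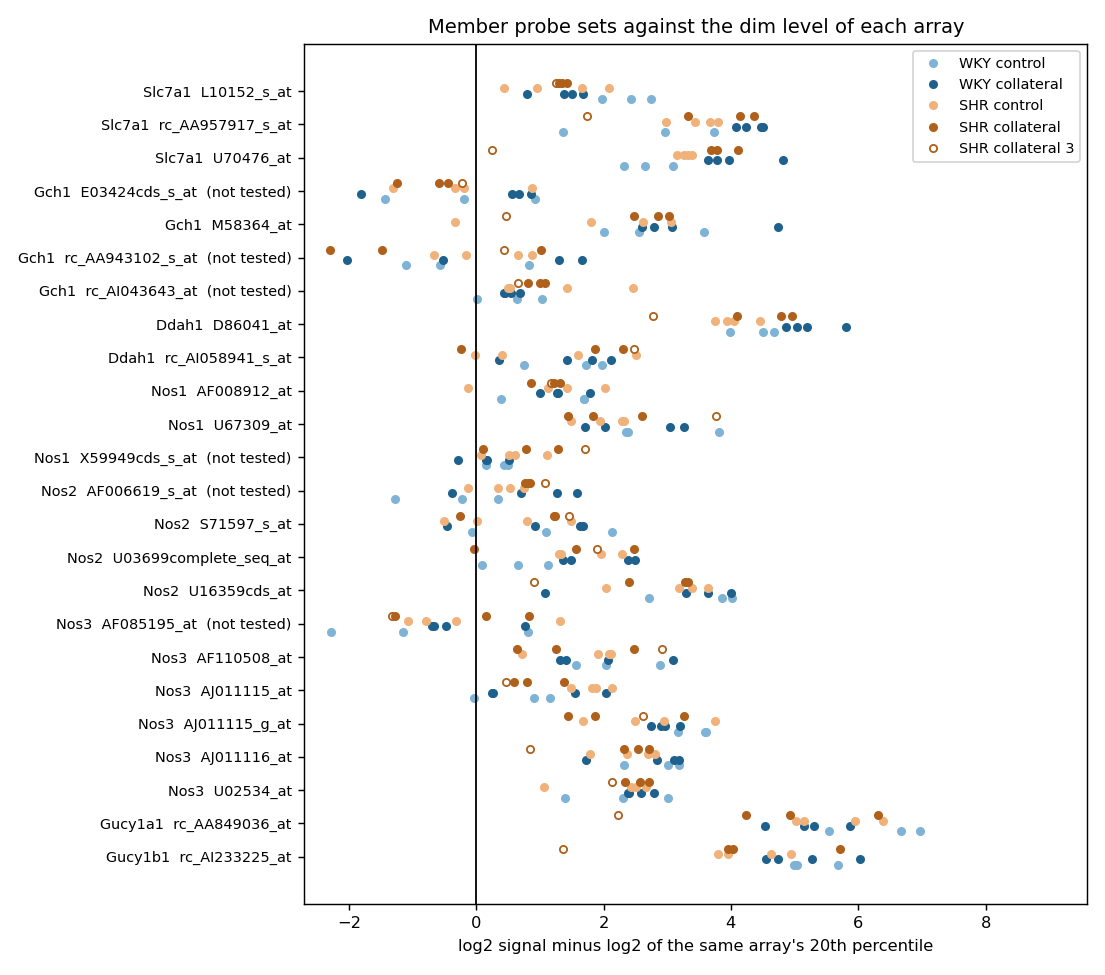
Each point is 1 array, plotted as the log2 signal of a probe set minus log2 of that array's 20th percentile, for all 24 probe sets of the 8 genes, coloured by group, with SHR collateral 3 as an open circle. Both cyclase subunits and Ddah1 D86041_at lie above the line at 0 on every array, and most of the untested probe sets straddle it.

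In WKY arteries carrying collateral flow, the arginine transporter Slc7a1 (on 2 of its 3 probe sets) and Ddah1 (on 1 of 2) were higher and the cyclase subunit Gucy1a1 was lower than in control arteries, with no array of either group overlapping. None of these differences passed limma's test after Benjamini-Hochberg adjustment over the 6512 probe sets tested. No member passed it in any of the 7 comparisons made. In WKY collateral against control arteries 0 of 18 members were called, against 0% of all probe sets, and 4 of 18 reached an unadjusted p under 0.05, against 3.16% of all. Those 4 probe sets belong to 3 genes. Altogether 6 of 18 did not overlap between the WKY groups against 6.7% of all: 4 higher (3.61% of all) and 2 lower (3.09%). In SHR 0 of 18 were called (0% of all), 1 of 18 reached an unadjusted p under 0.05 (3.76%), and 0 of 18 did not overlap (1.72%). The median log2 difference of the members was -0.07 in WKY and 0.25 in SHR, beside 0.003 and 0.06 over all probe sets. Without SHR collateral 3 the SHR median of the members lay between 0.0006 and 0.04, the middle values of the 18.

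Slc7a1 was read by 3 probe sets. On rc_AA957917_s_at the WKY control arrays gave log2 signals of 8.78, 9.80 and 7.64, a mean of 8.74 ± 1.08 (SD, n = 3). The WKY collateral arrays gave 10.08, 10.77, 10.44 and 10.23, a mean of 10.38 ± 0.30 (SD, n = 4). All 4 collateral values lay above all 3 control values, and the control arrays were widely spread. The difference was 1.64 ± 0.46 (SE), or 3.11-fold, with a 95% interval of 0.67 to 2.60, a limma p of 0.00218 and an adjusted p of 0.99988. In SHR the control arrays gave 9.76, 9.90, 9.03 and 9.72 and the collateral arrays 9.67, 10.75, 9.16 and 9.59. These 2 groups overlapped, and their difference was 0.19 ± 0.43 (SE). It was 0.40 without SHR collateral 3 and -0.13 without SHR collateral 2. Without WKY control 3, the array at 7.64, the WKY difference was 1.09 (limma p 0.0279).

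U70476_at, a second probe set for the transporter, gave a like picture with a tighter control group. WKY control arrays gave 8.91, 8.72 and 8.59, and WKY collateral arrays 10.43, 9.91, 10.14 and 9.96. The groups were again separate, with a difference of 1.37 ± 0.46 (SE), or 2.58-fold, a limma p of 0.00809 and an adjusted p of 0.99988. SHR control arrays gave 9.34, 9.25, 9.38 and 9.66, above all 3 WKY control arrays, and SHR collateral arrays gave 10.12, 10.06, 7.67 and 9.55. The low value of 7.67 is SHR collateral 3, and the SHR difference was -0.06 ± 0.43 (SE) with it and 0.50 ± 0.27 (limma p 0.0786, adjusted p 0.999) without it. The sign turned when it was left out. Without that array the WKY difference had a limma p of 8.58e-05 and an adjusted p of 0.33, with the same mean difference and an SE of 0.27.

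The strain difference in the collateral change, SHR minus WKY, was -1.45 ± 0.63 (SE) for rc_AA957917_s_at (limma p 0.0329, adjusted p 0.99969) and -1.43 ± 0.63 for U70476_at (limma p 0.0352, adjusted p 0.99969). Without SHR collateral 3 these were -1.23 (limma p 0.0584) and -0.87 (limma p 0.0347). Without WKY control 3 the first was -0.89 (limma p 0.144). These were the only 2 of 18 members with an unadjusted p under 0.05 in this comparison, against 1.9% of all probe sets, and 0 of 18 were called, against 0% of all. Averaged over both strains, collateral arteries had 0.91 ± 0.31 (SE) more Slc7a1 signal on rc_AA957917_s_at (limma p 0.00901, adjusted p 0.807) and 0.65 ± 0.31 more on U70476_at (limma p 0.0512). With SHR collateral 3 left out the first was 1.02 ± 0.30 (limma p 0.00376, adjusted p 0.521) and the second 0.93 ± 0.19 (limma p 0.000124, adjusted p 0.242).

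L10152_s_at, the third Slc7a1 probe set, ran the other way. WKY control arrays gave 8.25, 8.05 and 9.01, and WKY collateral arrays 7.28, 7.07, 7.86 and 7.37, so the collateral group was the lower one and did not overlap. The difference was -1.04 ± 0.56 (SE) with a limma p of 0.0807. It was also the dimmest of the 3, at or above the 40th percentile on 8 arrays, where each of the others reached it on 14. Across the 15 arrays its rank correlation with the others was -0.332 and -0.529, while the other two correlated at 0.636, as a description over arrays that share groups. The direction for Slc7a1 therefore depends on the probe set, and the sources used here do not give the probe sequences that would tell which transcripts each one reads.

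**Figure D2:**
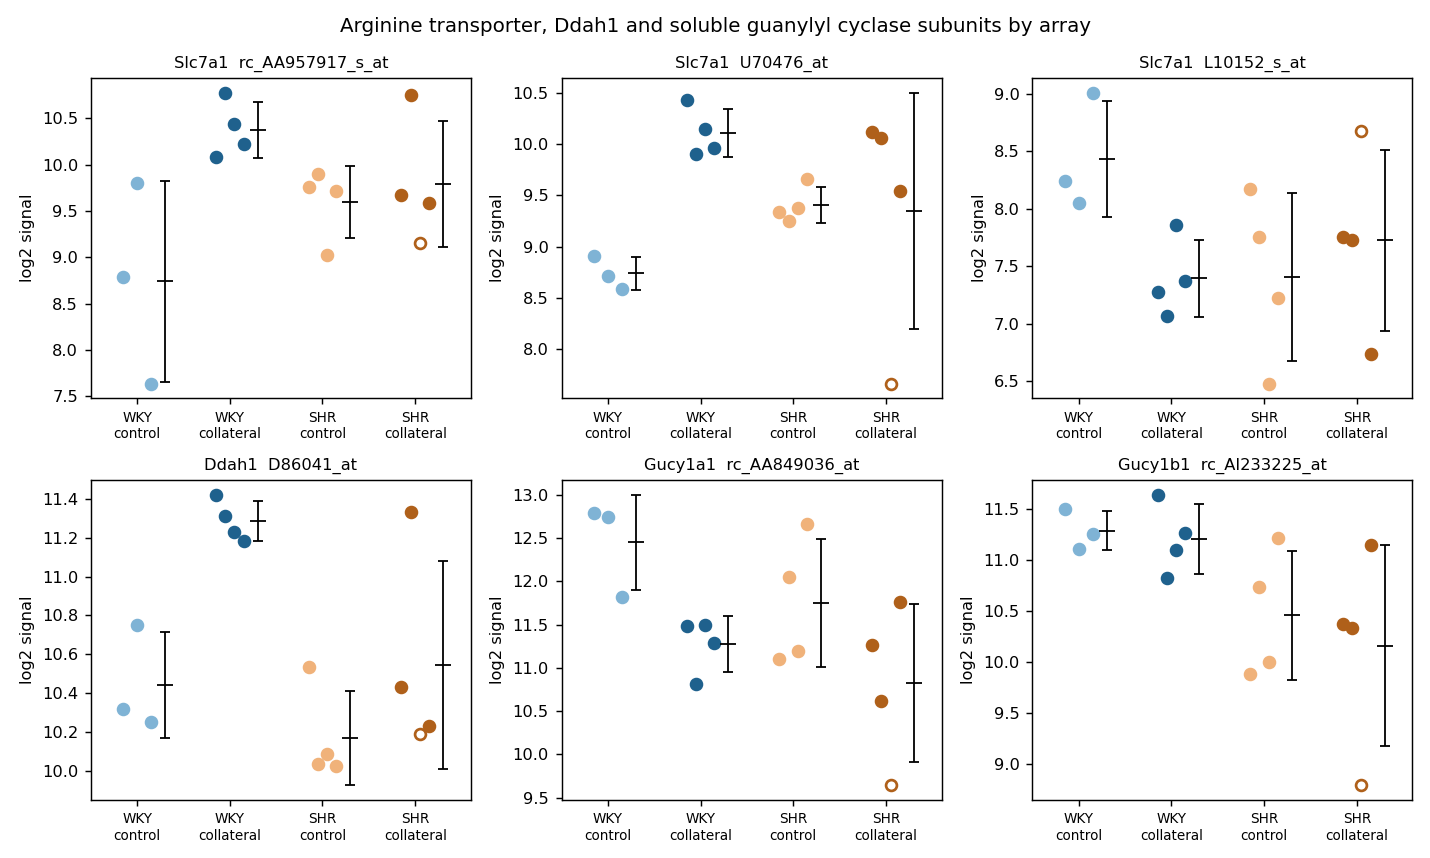
Log2 signal of every array (points, SHR collateral 3 open) by group, with the group mean and SD beside the points, for the 3 Slc7a1 probe sets, Ddah1 D86041_at, Gucy1a1 and Gucy1b1. WKY collateral arrays lie above WKY control arrays for Slc7a1 rc_AA957917_s_at and U70476_at and for Ddah1, and below them for Slc7a1 L10152_s_at and Gucy1a1.

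Gch1, which sets the supply of cofactor, was measured above the filter by M58364_at alone. Its mean was 8.77 ± 0.66 (SD, n = 3) in WKY control, 9.36 ± 0.75 (SD, n = 4) in WKY collateral, 7.91 ± 1.42 (SD, n = 4) in SHR control and 8.60 ± 0.56 (SD, n = 4) in SHR collateral arteries. SHR control 4, at 5.93, was the lowest of the 15 arrays. Collateral arteries were 0.64 ± 0.44 (SE) higher over both strains (95% interval -0.29 to 1.56, limma p 0.165), and the SHR minus WKY difference was -0.81 ± 0.44 (limma p 0.0817, adjusted p 0.5). Without SHR control 4 these were 0.31 (limma p 0.401) and -0.48 (limma p 0.195), and the SHR difference with vessel type went from 0.68 to 0.03.

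Ddah1 clears the methylarginines that block the synthases. On D86041_at the WKY control arrays gave 10.32, 10.75 and 10.25 and the WKY collateral arrays 11.42, 11.31, 11.23 and 11.18. The collateral group was tight and entirely above the control group, by 0.84 ± 0.30 (SE), or 1.79-fold, with a limma p of 0.0111 and an adjusted p of 0.99988. SHR control arrays gave 10.53, 10.04, 10.09 and 10.03, and SHR collateral arrays 10.43, 11.33, 10.19 and 10.23. Only SHR collateral 2 reached the WKY collateral range, and the SHR difference was 0.38 ± 0.28 with it and 0.11 without it. The 2 strains' changes differed by -0.47 ± 0.41 (limma p 0.265), which does not separate them, and by -0.73 (limma p 0.0606) without SHR collateral 2.

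Over both strains collateral arteries were higher by 0.61 ± 0.20 (SE; limma p 0.00767, adjusted p 0.807). This was 0.67 without SHR collateral 3. SHR was lower than WKY in collateral arteries, with a difference of -0.74 ± 0.28 (limma p 0.0155, adjusted p 0.557), and over both vessel types, with one of -0.50 ± 0.20 (limma p 0.0231, adjusted p 0.327). The dimmer Ddah1 probe set rc_AI058941_s_at did not follow it (rank correlation 0.0714 over 15 arrays) and differed by 0.35 ± 0.62 with vessel type and 0.12 ± 0.62 with strain. These were 0.03 and -0.20 without SHR collateral 3.

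The summed signal of 11 endothelial genes ran from 8774 to 12378 in WKY control, 13341 to 19458 in WKY collateral, 7107 to 7552 in SHR control and 5907 to 12114 in SHR collateral arteries, and no gene of this list was below the dim level on most of the arrays. Between the WKY groups this sum was carried by Esm1, an endothelial secreted proteoglycan, whose mean log2 signal was 10.39 in WKY control and 12.39 in WKY collateral arteries. Icam2 (11.12 and 10.72), Edn1 (8.67 and 8.19), Kdr (8.51 and 8.27), Flt1 (7.44 and 7.29) and both Egfl7 probe sets had lower means in WKY collateral arteries. Sele (7.29 and 8.40), Pecam1 (8.20 and 8.63), Selp (10.76 and 10.92) and both Thbd probe sets had higher means there. Vwf was lower on U50044cds_at (5.52 and 5.04) and higher on U50044cds_g_at (7.65 and 7.93). The mean log2 signal of the list overlapped between groups, at 8.14 to 8.83 in WKY control, 8.25 to 9.13 in WKY collateral, 7.91 to 8.44 in SHR control and 7.54 to 8.85 in SHR collateral arteries. Between the WKY groups, the sum of 8 fibroblast and adventitia genes was 491554 to 551329 in control and 388642 to 482122 in collateral arteries. The mean log2 signal of that list overlapped. The sum of 9 skeletal muscle genes was 4298 to 6050 in WKY control and 6189 to 9486 in WKY collateral arteries. The mean log2 signal of 9 adipocyte genes was 9.06 to 9.76 and 8.11 to 9.16. The part of these markers in the Slc7a1 and Ddah1 differences was not tested. In whole arteries, fewer cells of a type and less RNA per cell cannot be told apart.

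The synthases themselves showed no difference that held across their probe sets. Nos3 was read by 5 tested probe sets, and their collateral minus control differences over both strains were 0.09, -0.20, -0.33, -0.08 and 0.43, with SEs of 0.31 to 0.51. All 5 of their 95% intervals held 0, the widest running from -0.98 to 1.16. The SHR minus WKY differences were -0.09, 0.67, -0.49, -0.31 and 0.12. The first of each series, from AF110508_at, was -0.26 with vessel type and -0.45 with strain once SHR collateral 3 was left out. AJ011115_g_at, the third of each series, then differed by -0.56 with vessel type and -0.72 with strain (limma p 0.0705, adjusted p 0.466). Rank correlations between the 5 probe sets over 15 arrays lay between -0.129 and 0.343, so they did not order the arrays alike. On AJ011115_at the SHR control arrays gave 7.97, 7.92, 7.53 and 8.40 and the WKY control arrays 6.99, 6.04 and 7.17. These groups did not overlap, and the difference was 1.22 ± 0.57 (SE; limma p 0.0463, adjusted p 0.768). The companion probe set of the same accession, AJ011115_g_at, had means of 8.84 in SHR control and 9.51 in WKY control arteries, the opposite order. AJ011115_at reached the 40th percentile on only 5 arrays, namely every SHR control array and WKY collateral 4. It passed the filter only through the group where it was high, so its p and lack of overlap are no support for a strain difference.

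**Figure D3:**
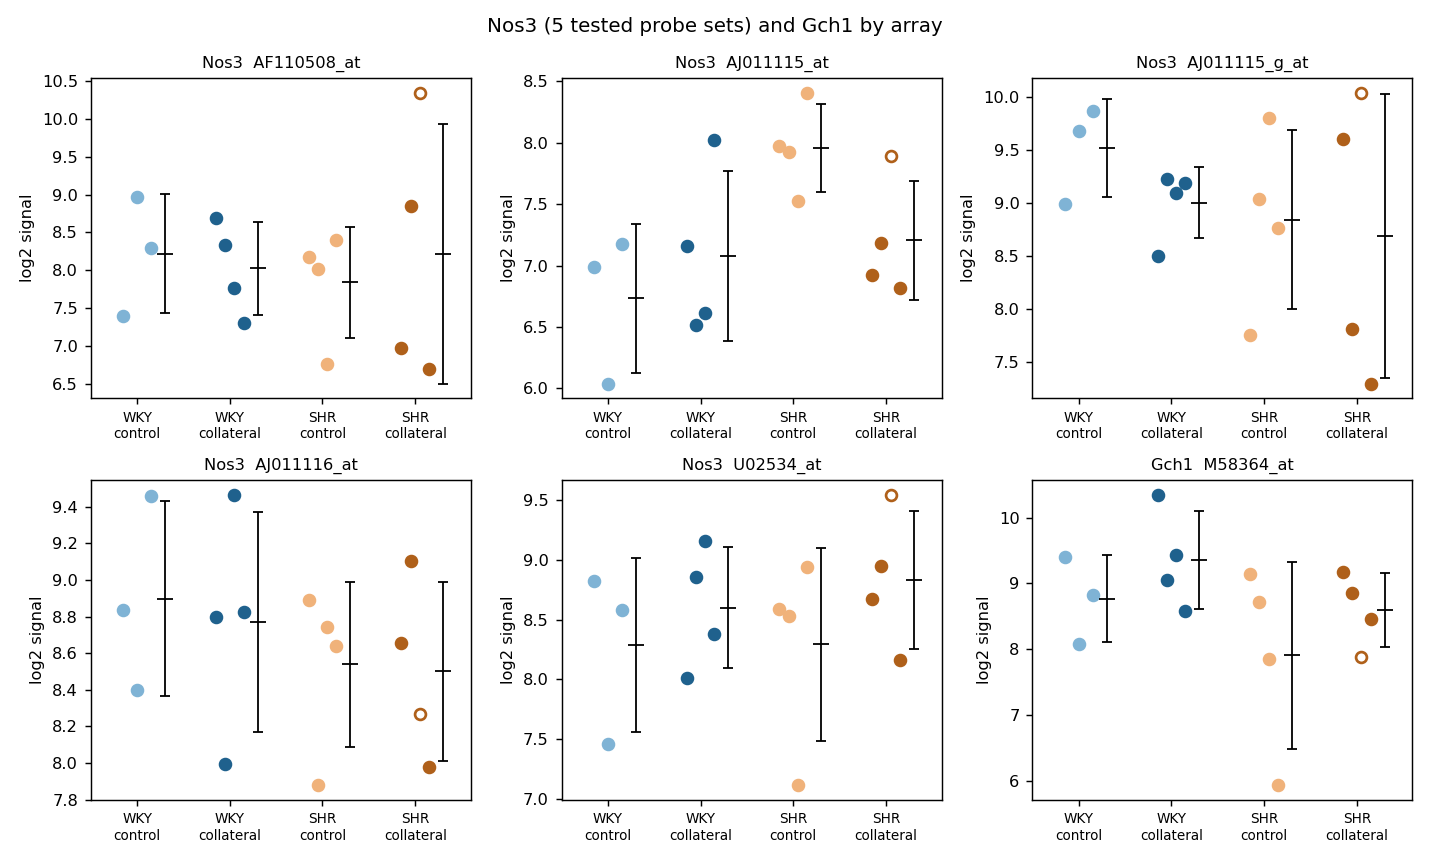
Log2 signal of every array (points, SHR collateral 3 open) by group, with the group mean and SD beside the points, for the 5 tested Nos3 probe sets and Gch1 M58364_at. Groups overlap in every panel except SHR control against WKY control on AJ011115_at. That probe set passed the filter only through its high SHR control arrays.

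Nos2, the inducible synthase, was tested on 3 probe sets, with collateral differences over both strains of 0.31, 0.67 and -0.42. On U03699complete_seq_at the WKY control arrays gave 6.47, 6.16 and 7.39 and the WKY collateral arrays 8.10, 7.63, 8.75 and 7.47. The collateral group was higher without overlap, by 1.31 ± 0.69 (SE; limma p 0.0728, adjusted p 0.99988), while in SHR the difference was 0.02 ± 0.64. Without SHR collateral 3 the WKY difference had a limma p of 0.0496 (adjusted p 0.996), the SHR difference was -0.46, and the difference over both strains was 0.42 in place of 0.67. The first of the 3, from S71597_s_at, was then 0.05. The 3 Nos2 probe sets correlated at -0.446 to 0.132. Nos1 was tested on 2 probe sets, with collateral differences of 0.19 and 0.16 and strain differences of 0.03 and -0.26. Its highest value was 11.19 on U67309_at, from SHR collateral 3, whose background was also high. Without that array the differences on U67309_at were -0.23 with vessel type and -0.66 with strain.

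Gucy1a1, the alpha 1 subunit of the cyclase, had a lower mean in collateral than in control arteries of both strains, and neither difference passed after adjustment. WKY control arrays gave 12.79, 12.74 and 11.82, and WKY collateral arrays 11.49, 10.81, 11.50 and 11.29. All 4 collateral values lay below all 3 control values, and the difference was -1.18 ± 0.45 (SE), or 2.27-fold lower, with a limma p of 0.0176 and an adjusted p of 0.99988. SHR control arrays gave 11.10, 12.05, 11.19 and 12.66, and SHR collateral arrays 11.26, 10.62, 9.64 and 11.76. The SHR groups overlapped, and the lowest value was SHR collateral 3. The SHR difference was -0.93 ± 0.42 (limma p 0.0387, adjusted p 0.949), and -0.54 (limma p 0.163) without that array.

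Over both strains the difference for Gucy1a1 was -1.06 ± 0.31 (SE), or 2.08-fold lower in collateral arteries (limma p 0.00295, adjusted p 0.807), and -0.86 (limma p 0.00443) without SHR collateral 3. In this comparison 0 of 18 members were called (0% of all probe sets) and 3 of 18 had an unadjusted p under 0.05 (5.11%). The strains' changes differed by 0.25 ± 0.62, or 0.64 without SHR collateral 3. SHR minus WKY over both vessel types was -0.58 ± 0.31 (limma p 0.0781), or -0.38 without that array.

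Gucy1b1, the beta 1 subunit that carries the heme to which nitric oxide binds, had its smallest unadjusted p for strain over both vessel types, which did not pass after adjustment. WKY control arrays gave 11.50, 11.11 and 11.25, and WKY collateral arrays 11.64, 10.82, 11.10 and 11.26. SHR control arrays gave 9.88, 10.73, 9.999 and 11.21, and SHR collateral arrays 10.37, 10.33, 8.79 and 11.15. The SHR arrays were lower on average but 2 of the 8, SHR control 4 and SHR collateral 4, lay within the WKY range. Over both vessel types the SHR minus WKY difference was -0.94 ± 0.30 (SE), or 1.92-fold lower in SHR, with a limma p of 0.00578 and an adjusted p of 0.182. Without SHR collateral 3 it was -0.71 (limma p 0.00599, adjusted p 0.159).

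For strain over both vessel types 0 of 18 members were called (0.891% of all probe sets) and 2 of 18, Gucy1b1 and Ddah1, had an unadjusted p under 0.05 (close to the 11.9% of all probe sets). In collateral arteries alone 0 of 18 were called (0%) and the same 2 genes had an unadjusted p under 0.05 (2 of 18, against 7.62%). No member separated the strains there without overlap (0 of 18, against 3.62%). There the Gucy1b1 difference was -1.05 ± 0.41 (limma p 0.0194, adjusted p 0.579), and -0.59 (limma p 0.0828) without SHR collateral 3. In control arteries 0 of 18 were called (0.0307%) and 1 of 18, Nos3 AJ011115_at, had an unadjusted p under 0.05 (6.46%). That probe set and Slc7a1 U70476_at were the 2 of 18 that did not overlap between strains (8.57%). The Nos3 probe set passed the filter only through its high SHR control arrays. In control arteries the Gucy1b1 difference was -0.83 ± 0.44 (limma p 0.0755). With vessel type over both strains it was -0.19 ± 0.30 (95% interval -0.82 to 0.44, limma p 0.536), and 0.04 without SHR collateral 3.

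Across the 15 arrays the 2 subunits had a rank correlation of 0.675, and 0.6 without SHR collateral 3. The summed signal of 10 contractile smooth muscle genes ran from 419396 to 552342 in WKY control, 467224 to 648294 in WKY collateral, 278872 to 599417 in SHR control and 153940 to 775309 in SHR collateral arteries. SHR collateral 3 had the lowest sum, 153940, as it had the lowest value of both subunits. The mean log2 signal of the list was 13.13 to 13.46 in WKY control and 13.18 to 13.48 in WKY collateral arteries. It was 12.29 to 13.37 in SHR control and 11.76 to 13.51 in SHR collateral arteries. No gene of the list was below the dim level on most of the arrays, and its part in the Gucy1a1 and Gucy1b1 differences was not tested.

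**Figure D4:**
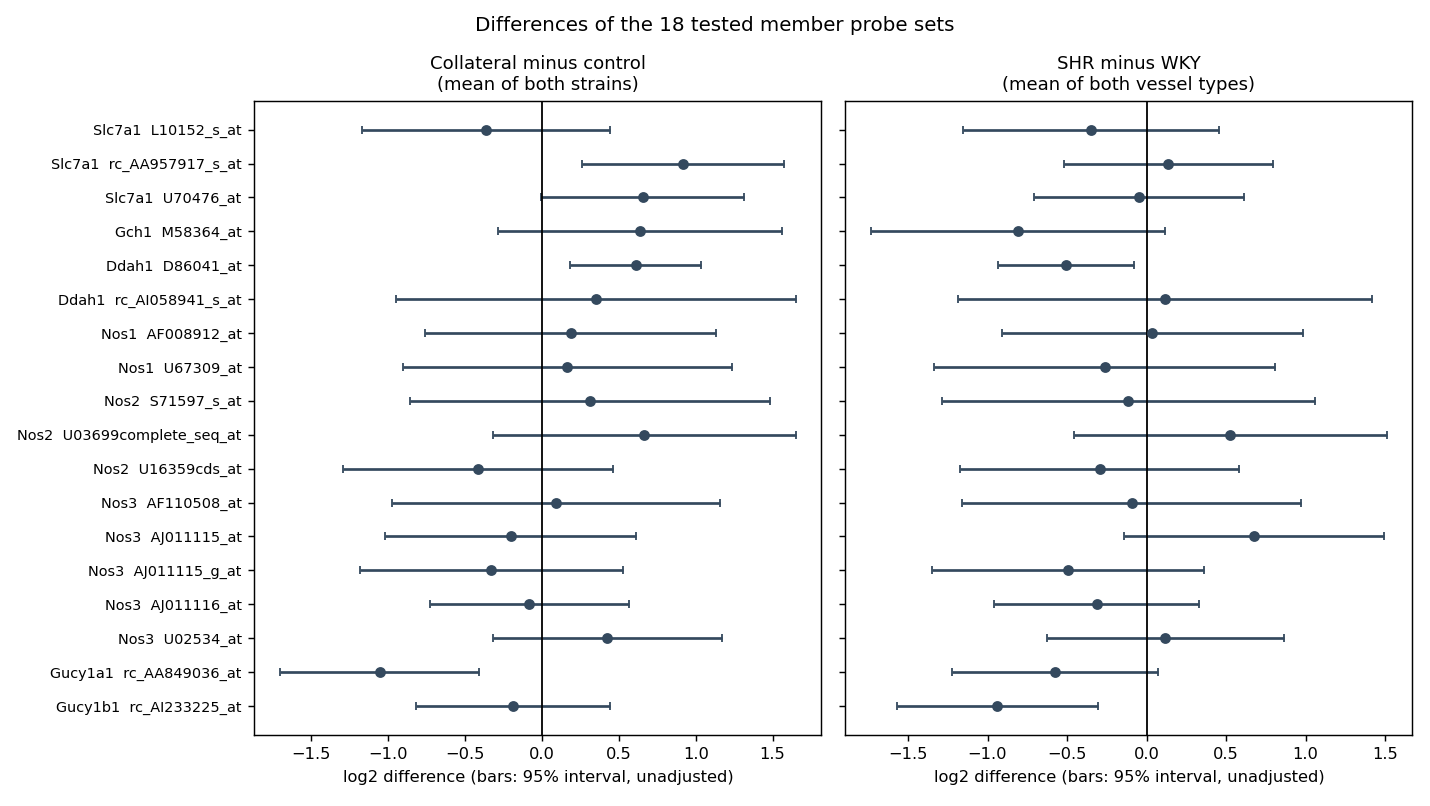
Log2 differences of the 18 tested probe sets with unadjusted 95% intervals (x axes), collateral minus control over both strains on the left and SHR minus WKY over both vessel types on the right. Intervals that leave out 0 belong to Slc7a1 rc_AA957917_s_at, Ddah1 D86041_at and Gucy1a1 on the left, and to Ddah1 D86041_at and Gucy1b1 on the right.

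**Figure D5:**
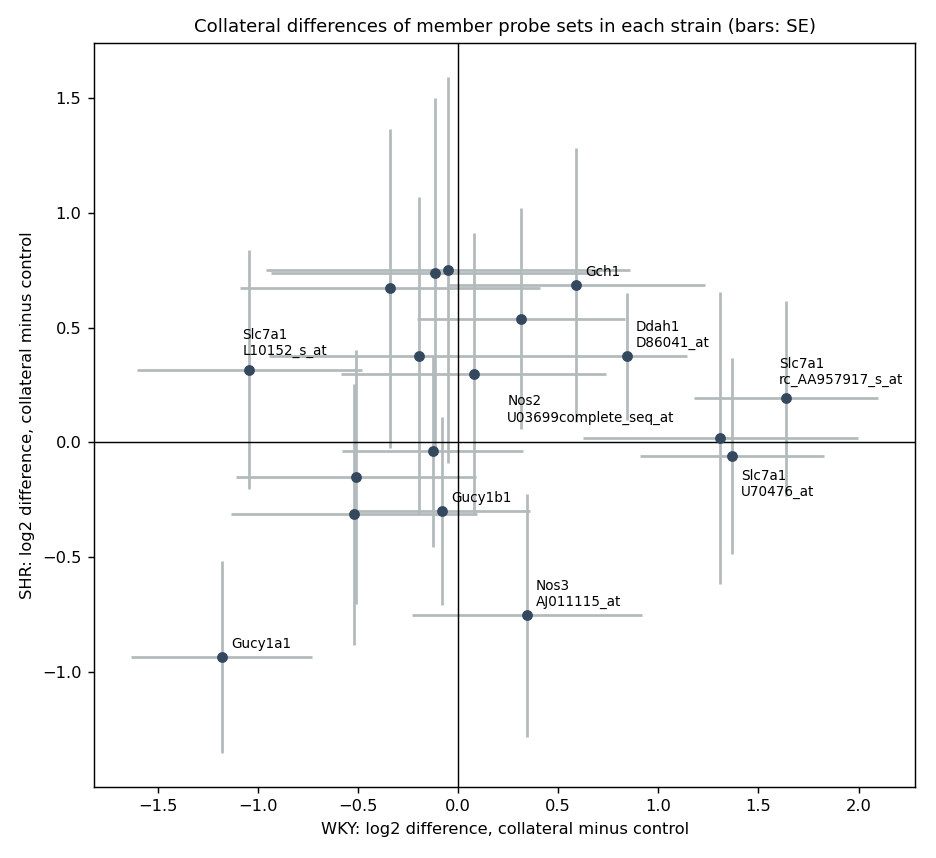
Collateral minus control log2 difference of the 18 tested probe sets in WKY (x axis) and SHR (y axis), with bars of 1 SE. Slc7a1 on rc_AA957917_s_at and U70476_at lie far to the right at SHR differences of 0.19 and -0.06 (0.40 and 0.50 without SHR collateral 3), and Gucy1a1 lies below 0 in both strains.

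The rest of the pathway was followed through 8 lists of 130 genes, of which 84 were on the array and 70, with 110 probe sets, were tested. Only the strain comparison over both vessel types called any of them, 1 higher and 1 lower of 110, against 0.891% of all probe sets (58 of 6512). Hmox1 on rc_AI179610_at, heme oxygenase 1, which degrades heme to carbon monoxide and biliverdin, rose in SHR. Its log2 signal was 10.30 to 11.95 on the 8 SHR arrays and 8.44 to 10.49 on the 7 WKY arrays, a difference of 1.78 ± 0.31 (SE; limma adjusted p 0.00643). Pde4b on rc_AA799729_g_at, a phosphodiesterase that hydrolyses cAMP and not cGMP, fell in SHR. It was 10.23 to 12.89 on SHR and 12.77 to 14.41 on WKY arrays, a difference of -1.81 ± 0.35 (SE; limma adjusted p 0.0147). With the arrays scaled to equal medians both calls were lost, at adjusted p of 0.0514 for Hmox1 and 0.0531 for Pde4b. Pde4b also lost its call without WKY control 1, at 0.0511, and without the variance trend, at 0.0662. Without SHR collateral 3 the differences were 1.76 for Hmox1 (limma adjusted p 0.00964) and -1.59 for Pde4b (0.0136).

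The list counts that follow are of unadjusted p under 0.05 in that strain comparison. Of 13 phosphodiesterase probe sets 1 was higher and 4 were lower in SHR, with a median difference of -0.33. The 4 lower ones all read Pde4b, a single cAMP enzyme, and the higher one reads Pde3a, which hydrolyses cAMP and cGMP, at 0.93 ± 0.41 (SE; limma p 0.0333). Of 19 probe sets for enzymes that scavenge or reduce nitric oxide and its reaction partners 5 were higher and 1 lower, with a median of 0.18. These included Sod3, the extracellular superoxide dismutase, at 1.24 ± 0.34 (SE; limma p 0.00197, adjusted p 0.101), or 1.01 without SHR collateral 3. Of 24 probe sets for cGMP kinases, targets and channels 3 were higher and 4 lower. The median over all probe sets was 0.07, and 6.73% were higher and 5.13% lower.

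For collateral against control arteries over both strains 4 of the 110 pathway probe sets were higher and 3 lower at an unadjusted p under 0.05, with none called. Over all probe sets 2.53% were higher and 2.58% lower at that level, so the pathway's counts are close to the background. Odc1, ornithine decarboxylase, which draws on the arginine pool through ornithine, was 0.59 ± 0.22 (SE; limma p 0.0149) higher on J04791_s_at. Another Odc1 probe set, J04792_at, ran from 12.07 to 12.48 in WKY control and 12.56 to 13.17 in WKY collateral arteries. In SHR it overlapped, at 12.06 to 12.39 in control and 10.62 to 12.69 in collateral arteries, with SHR collateral 3 the lowest. Prmt3, a protein arginine methyltransferase, was 1.11 ± 0.39 (limma p 0.00982) higher. Among targets of the cGMP signal, Kcnma1, the pore of the large-conductance calcium-activated potassium channel, was 1.16 ± 0.45 higher, and Pln, phospholamban, differed by -1.12 ± 0.43. None of these passed after adjustment. The Kcnma1 probe set, AF083341_s_at, lay below the filter's signal level on every control array. It passed the filter only through collateral arrays where it was high, so its rise is no support for a difference with vessel type. Without SHR collateral 3, the array with the highest value of Prmt3 and Kcnma1 and the lowest of Pln, the 4 differences were 0.72, 0.92, 0.95 and -0.85.

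Genes were also ranked by how closely their log2 signal ordered the 15 arrays like a member's, by Spearman's rho over arrays that share groups and labelling, and the 3 closest to each member's brightest tested probe set are named. The value over the 14 arrays without SHR collateral 3 follows each rho. Gucy1b1 was most like Itpr1 (0.946, then 0.934), Calm2 (0.925, 0.908) and Ero1b (0.911, 0.89). For Gucy1a1 these were Higd1a (0.946, 0.934), Usp40 (0.914, 0.895) and Csrp2 (0.9, 0.877). Slc7a1 on rc_AA957917_s_at was closest to Uchl1 (0.886, 0.881), Rnh1 (0.864, 0.868) and Rab10 (0.85, 0.842). Gch1 was closest to Slfn2 (0.893, 0.895), Pvr (0.83, 0.802) and Crabp2 (0.825, 0.824), and Ddah1 to F2r (0.811, 0.798), Zfp697 (0.775, 0.758) and Gja5 (0.761, 0.732). Among the synthases, Nos3 on AJ011115_g_at was closest to Il15 (0.857, 0.824), Pgam2 (0.846, 0.811) and Acvr2b (0.83, 0.789). Nos2 on U16359cds_at was closest to Nkiras2 (0.925, 0.921), Rcn3 (0.757, 0.741) and Snrnp70 (0.754, 0.719), and Nos1 on U67309_at to Mog (0.925, 0.921), Trib3 (0.9, 0.877) and Nfasc (0.896, 0.873). Itpr1, an inositol trisphosphate receptor on the pathway lists, differed with strain over both vessel types by -1.46 ± 0.64 (SE; limma p 0.0351), or -0.76 without SHR collateral 3. Calm2, a calmodulin, differed by -0.62 ± 0.24 (limma p 0.0183), or -0.44 without that array. Neither passed after adjustment.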

How the data were processed

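Signals of 15 arrays were deposited by the authors in 1 table as MAS5 signal on a linear scale. Per the submitters' processing notes the tools were GCOS and MAS5, with versions not given in the sources used here. Per the labels' protocols, RNA came from a column kit made for fibrous samples, and small inputs were amplified to biotinylated cRNA. All columns were mapped to a sample (0 were not). Signals under 1 (12 values) were set to 1 before taking log2, with no further scaling. The platform annotation gave 7006 probe sets 1 symbol, 308 several and 1426 none. The 3 probe sets shared by Nos2 and Nos2-ps1 were left out of the members.

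Probe sets were tested where the signal reached the 40th percentile of its array in 3 or more arrays (6512). limma 3.58.1 in R 4.3.3 fitted the 4 group means over all 15 arrays with a variance trend (11 residual and 7.19 prior degrees of freedom). P-values of each of the 7 comparisons were adjusted by Benjamini-Hochberg over all 6512, with 0.05 as the threshold. The number of arrays limits the precision. All member probe sets were reported. Pathway genes were named from those called and from the 2 of each list with the smallest unadjusted p in a comparison. Members and lists were chosen with earlier results of these data known. The fitting code was tested on simulated data.

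Alternatives changed 1 choice at a time. Scaling was replaced by quantile normalization or by setting array medians equal, and 68.5 was added to signals ahead of the logarithm. The filter was dropped or moved to the 60th percentile. The variance trend was removed, arrays were weighted, and the replicate number entered as a block, fixed and then random. The fit was also limited to the groups compared, and each array was left out in turn.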

Additional observations from a re-analysis of the deposited data

Results flagged for a closer look

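Ddah1 on D86041_at had 1 array far from the rest of its group: SHR control 1 read 10.53 in log2 signal, while the other 3 SHR control arrays lay between 10.03 and 10.09. It was the only such case among the 72 groups of 4 arrays examined, a check that chance alone meets in about 1 of 20 groups (3.6 of 72).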

How the results depend on the processing

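Of the 126 differences of the members, 56 changed sign in at least 1 alternative, 183 of 3054 alternative fits in all, and the largest of these 56 was 0.67 in size. Of the 61 differences that the text gives for members and pathway genes, 14 changed sign, in 52 of 1467 fits. Leaving out 1 array moved these 14 as follows. Slc7a1 in SHR ran from -0.13 to 0.40 on rc_AA957917_s_at and -0.32 to 0.50 on U70476_at, and Nos2 U03699complete_seq_at in SHR from -0.46 to 0.54. The strain difference in Gucy1a1's change ran from -0.065 to 0.64. For vessel type, Nos1 ran from -0.032 to 0.35 on AF008912_at and -0.23 to 0.49 on U67309_at, Nos3 from -0.26 to 0.34 on AF110508_at and -0.21 to 0.057 on AJ011116_at, and Gucy1b1 from -0.35 to 0.039. For strain, Ddah1 rc_AI058941_s_at ran from -0.20 to 0.58, Nos1 from -0.18 to 0.25 on AF008912_at and -0.66 to 0.058 on U67309_at, and Nos3 from -0.45 to 0.16 on AF110508_at and -0.088 to 0.32 on U02534_at. Array weights gave 0.55 for Slc7a1 U70476_at in SHR, -0.93 for Nos2 U03699complete_seq_at in SHR, and, for vessel type, -0.31 for Nos1 U67309_at, -0.46 for Nos3 AF110508_at and 0.020 for Nos3 AJ011116_at. Quantile normalization gave -0.15 for Nos2 U03699complete_seq_at in SHR, -0.0075 for the strain difference in Gucy1a1's change, and, for strain, -0.13 for Nos1 AF008912_at and -0.0022 for Nos3 U02534_at. Equal array medians gave -0.16 for Nos2 U03699complete_seq_at in SHR and, for strain, -0.023 for Ddah1 rc_AI058941_s_at, -0.10 for Nos1 AF008912_at and -0.020 for Nos3 U02534_at.

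Of 3054 alternative fits of the members only 1 called a member: Gucy1b1, lower in SHR over both vessel types by -1.04 at a limma adjusted p of 0.049 with the replicate number as a fixed block, and 0.109 with it as a random block. The labels number the replicates of each group. Deviations from the group means correlated at -0.0696 to 0.306 in the 7 same-numbered pairs of control and collateral arrays of a strain, 2 of them over 0.1. The 21 differently numbered pairs gave -0.269 to 0.113, and the 2 highest values, 0.306 and 0.168, were of same-numbered WKY pairs. Whether the numbers pair arrays is thus not settled, and the main fit did not use them. Each block joined arrays of both strains under 1 number, so a pairing within a strain was not fitted.

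Counts of called probe sets over the whole array moved more. For SHR against WKY over both vessel types 58 were called (25 higher and 33 lower), and 31 with equal array medians (10 higher and 21 lower, with the median of all differences moved by -0.138), 34 without the variance trend, 184 with array weights, 134 with the fixed replicate block and 92 with the random one. Leaving out 1 array gave 31 to 101. The count was 31 without SHR control 3, 32 without WKY control 3, 35 without WKY control 1, 36 without SHR collateral 1 or WKY collateral 2, 37 without SHR control 1, and 101 without SHR control 4. In control arteries 2 were called, and 0 with no filter, 0 with the 60th percentile filter, 1 without the trend, 14 with array weights, 4 with either replicate block, 7 with only those arrays, and 0 to 6 with 1 array left out (6 without SHR control 4, 2 without SHR control 3, SHR collateral 3 or SHR collateral 4, 1 without SHR collateral 1 or WKY collateral 4, and 0 without any other). In collateral arteries 0 were called by limma (496 at an unadjusted p under 0.05), and 26 with array weights, 6 with either replicate block, 2 with only those arrays, and 0 to 7 with 1 array left out (7 without SHR collateral 4, 4 without SHR collateral 2, 2 without SHR collateral 1 or WKY collateral 1, 1 without SHR control 1 or SHR control 2). The cause was not tested. No probe set was called for vessel type in either strain, over both, or for the strain difference in it (206, 245, 333 and 124 at an unadjusted p under 0.05).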

Other observations

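The 3 probe sets whose annotation names both Nos2 and the pseudogene Nos2-ps1 cannot be assigned to either. D83661_s_at ran from 6.33 on SHR collateral 4 to 9.85 on WKY collateral 3 in log2 signal, U48829_s_at from 6.47 on WKY collateral 4 to 10.63 on SHR collateral 3, and D44591_s_at, which did not pass the filter, from 3.57 to 6.98. Macrophage and monocyte markers, 8 genes on the array, summed to 5531 to 7415 in WKY control, 7063 to 21153 in WKY collateral, 7099 to 54432 in SHR control and 19708 to 35639 in SHR collateral arteries. Lyz2, the brightest gene of that list, had a mean log2 signal of 10.79 in WKY control and 12.36 in WKY collateral arteries. The mean log2 signal of the whole list was 7.04 to 7.38 in WKY control and 7.16 to 7.35 in WKY collateral arteries. It was 7.46 to 9.17 in SHR control and 7.76 to 9.28 in SHR collateral arteries. Itgam, a gene of that list, was below the 20th percentile on most of the arrays.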
